A study of Mus musculus with 96 samples.

Results

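Ptgs2 and Ptges encode a pair of enzymes that act in sequence to make prostaglandins, and they were followed here in mouse dendritic cells exposed to microbial ligands. They were chosen by name, with Ptgs1, as the prostaglandin synthesis enzymes, and every probe set that the platform annotation gives to them was taken. The annotation paired 2 of the 3 genes with probe sets, 2 for each, among 7741 named genes in 10543 tested items. Ptgs1, the constitutive cyclooxygenase gene, is not analysed here. The rule that names them uses no measured value, but the members were chosen with earlier results of these data known.

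Primary dendritic cells grown from mouse bone marrow received 1 of 5 Toll-like receptor ligands, labelled Lps, Pic, Pam, Cpg and Grd. These names stand for lipopolysaccharide (which acts through TLR4), poly(I:C), which mimics double-stranded RNA (TLR3), a lipopeptide (TLR2), a CpG oligonucleotide (TLR9) and gardiquimod (TLR7), a reading that rests on knowledge of the study rather than on the labels. Samples of each ligand were taken at 0.5, 1 and 2 h, at 4, 6 and 8 h and at 12, 16 and 24 h, on 2 arrays a time, but on 1 array for Cpg at 16 h and 1 at 24 h, which gave 18 arrays for each ligand and 16 for Cpg. Unstimulated cells gave 8 arrays, 1 each at 0, 1, 2, 4, 6, 8, 12 and 24 h. The labels give no strain, genotype or age and no ligand dose. They do not say whether arrays of 1 group came from separate cultures, so every p-value reflects the spread among the deposited arrays alone, and that spread may be technical. The design asks how ligands differ in the response they give and in its course.

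Prostaglandins are lipid mediators made from arachidonic acid, which phospholipases release from membranes. The cyclooxygenases encoded by Ptgs1 and Ptgs2 convert it to the unstable intermediate prostaglandin H, and terminal synthases turn that into separate products. Ptgs2 is the inducible cyclooxygenase and the target of selective anti-inflammatory drugs. Ptges encodes microsomal prostaglandin E synthase, an inducible terminal enzyme that makes prostaglandin E, a mediator of fever and pain that also acts on dendritic cells through the receptors Ptger2 and Ptger4.

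The DNA just before each annotated start is shown as background, and a link between it and the timing of the 2 genes was not tested. The sequences are those of RefSeq on build GRCm38.p6, in which 2 of 2 measured genes matched, and they run 5′ to 3′ over the 250 bases that end at the last base before the start. Ptgs2 lies on the plus strand (chr1:150099781-150100030) and Ptges on the minus strand (chr2:30903298-30903547). Capitals mark matches to a searched motif.
Ptgs2: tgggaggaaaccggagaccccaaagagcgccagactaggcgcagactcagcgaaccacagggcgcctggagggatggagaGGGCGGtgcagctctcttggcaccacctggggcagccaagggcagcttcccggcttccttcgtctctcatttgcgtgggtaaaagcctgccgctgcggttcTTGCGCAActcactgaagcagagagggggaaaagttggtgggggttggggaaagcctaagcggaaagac
Ptges: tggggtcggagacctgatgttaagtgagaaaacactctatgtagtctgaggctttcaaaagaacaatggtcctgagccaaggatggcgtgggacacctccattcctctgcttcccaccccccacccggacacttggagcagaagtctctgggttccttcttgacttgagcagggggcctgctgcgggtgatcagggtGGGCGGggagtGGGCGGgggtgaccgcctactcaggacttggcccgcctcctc
Both strands of these bases and of the first 50 after the start, 300 in all, were searched, and the same was done for 32851 promoters. The Ptgs2 window held the C/EBP palindrome TTGCGCAA 69 bases before the start, a match found in 0.183% of all promoters. It held a GC box, GGGCGG, 170 bases before the start. From the base numbered 14 after the start, counting the start as 1, it also held CGTCACGTG, in which the cyclic AMP response partial site CGTCA overlaps the E-box CACGTG. That overlapping pair was found in 0.451% of all promoters, the partial site alone in 20.8% and the E-box alone in 7.15%. The Ptges window held GC boxes 53 and 42 bases before the start, a motif found in 35.7% of all promoters. Neither window held the full cyclic AMP response element TGACGTCA (1.79% of all promoters), the AP-1 site TGANTCA (7.81%), TATAAA (13.6%), the Egr site GCGTGGGCG (0.612%) or the kappa B consensus (8.46%). The windows were 59.3% and 60% G and C for Ptgs2 and Ptges, against a median of 52.7% over all promoters. A match is a match of letters only, and the arrays did not measure binding. Positions count from the annotated RefSeq start, and the start used in these cells was not measured. Sites outside the 300 bases were not searched, so a motif missing here may lie farther out.

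All values are intensities on a linear scale whose lowest value is 20, and a gene at 20 has only an upper bound there. Between 33.1% and 34.6% of probe sets lay at 20 on an array, array medians ranged from 48.75 to 59.5, and r between the 2 arrays of a group, over 43 such pairs, was 0.984 to 0.998 across probe sets, which are not independent. All 96 arrays lay on 1 plate. Place on the plate cannot be told apart from time for Lps, Pic, Pam and Grd, or from ligand and unstimulated cells. Listed dendritic cell markers had mean intensities in the unstimulated arrays of 3363 for Itgax, 5761 for H2-Ab1, 7975 for Cd74 and 655 for Cd86. Batf3 averaged 455 and Ciita 157, while Zbtb46 and Flt3 averaged 40.4 and 28.8, below every array median. Macrophage markers were present in the unstimulated arrays as well, with means from 338 for Mertk to 2858 for C1qb. The markers thus do not settle the cell type, which is taken from the labels. The 8 measured dendritic cell markers summed to between 17144.7 and 19304.4 on unstimulated arrays and to between 12698.4 and 20778.7 on stimulated arrays. The 7 macrophage markers summed to 9031.4 to 16727.6 and to 7535 to 22167.5, the 4 platelet markers to 2811.1 to 4035.1 and to 1598.5 to 7871.5. Of the 5 B cell, 3 T cell, 2 NK cell and 2 erythroid markers, 4, 2, 1 and 1 were at 20 on all arrays, and no array summed above 108.4, 66.9, 44 and 43.8. In bulk samples, a change in the number of cells that express a gene and a change in RNA per cell cannot be told apart.

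Ptgs2 was at 20 on all 8 unstimulated arrays with both probe sets, so its rises are given as lower bounds against 20, except in early Grd. The 2 probe sets moved together (r = 0.98 over the 46 group means), and the brighter one is reported unless stated. With Lps the 2 arrays read 38.8 and 48.4 at 0.5 h, 1530.6 and 1528 at 1 h, and 3837 and 3885 at 2 h. They read 4701.1 and 4737.1 at 4 h, 5388.3 and 5424.1 at 6 h, and 5287.2 and 4867.7 at 8 h. Ptgs2 thus climbed within 1 h, was highest at 6 h and held above 4701 through the middle times. The later Lps arrays read 3665.4 and 4112.4 at 12 h, 1691.2 and 1869.3 at 16 h, and 2915.2 and 2772.9 at 24 h. No Lps array overlapped the unstimulated range at any time, and the 16 h arrays were the lowest after 1 h.

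Pam arrays read 272.3 and 78.8 for Ptgs2 at 0.5 h, 1897.1 and 2001 at 1 h, and 2144.5 and 1337.6 at 2 h. They read 3089.1 and 3215.3 at 4 h, 3765.2 and 2796.8 at 6 h, and 2978.4 and 2933.6 at 8 h. The 0.5 h arrays differed from each other more than at any other Pam time, relative to their level, and both were above 20 there, while the second probe set read close to 20. From 12 h Pam arrays read 2272.6 and 2117, then 1699.9 and 1634.4 at 16 h, and 1671.1 and 1833.7 at 24 h. Cpg arrays read 73.3 and 77.4 at 0.5 h, 3011.9 and 2707.7 at 1 h, and 3399 and 3198.7 at 2 h. Ptgs2 was at 56.4% of its Cpg peak at 1 h and 59.4% of its Pam peak at 1 h, compared with 28.3% for Lps. Cpg then gave 4146.3 and 3997 at 4 h, 5168.9 and 4967.8 at 6 h, and 3118.2 and 3746.4 at 8 h. The later Cpg arrays read 3765.6 and 3564.7 at 12 h, 1273.2 at 16 h and 2872 at 24 h. The single array at 16 h was the lowest Cpg array after 0.5 h.

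Grd arrays were still at 20 for Ptgs2 at 0.5 h, then read 479.9 and 565.6 at 1 h and 1092.9 and 1289.3 at 2 h. They read 4061.9 and 2896.7 at 4 h, 3710.6 and 4481.2 at 6 h, and 3671.9 and 3974.5 at 8 h. Ptgs2 was at 12.8% of its Grd peak at 1 h and 84.9% at 4 h, and from 6 h its arrays lay within the range of Lps, Pam and Cpg arrays of the same time. The later Grd arrays read 3219 and 3287.7 at 12 h, 1684.7 and 1568.8 at 16 h, and 2174.4 and 2131.5 at 24 h. Pic arrays read 20 and 20.2 at 0.5 h, 20 and 26.8 at 1 h, and 56.3 and 79.2 at 2 h. They read 75 and 64.1 at 4 h, 307.7 and 272.4 at 6 h, and 458.3 and 606.7 at 8 h. From 1 h on, every Pic array was below every array of the other ligands at the same time, and the peak came later, at 8 h (12 h on the second probe set). Pic arrays read 503.7 and 552.1 at 12 h, 96.5 and 91.7 at 16 h, and 59.7 and 41.9 at 24 h, so that the 12 h mean was 99.1% of the peak and the 24 h mean 9.54%. With the other ligands the 24 h mean was 52.6% (Lps), 53.4% (Pam), 56.7% (Cpg) and 52.6% (Grd) of the peak, which fell at 6 h for each of them.

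**Figure D1:**
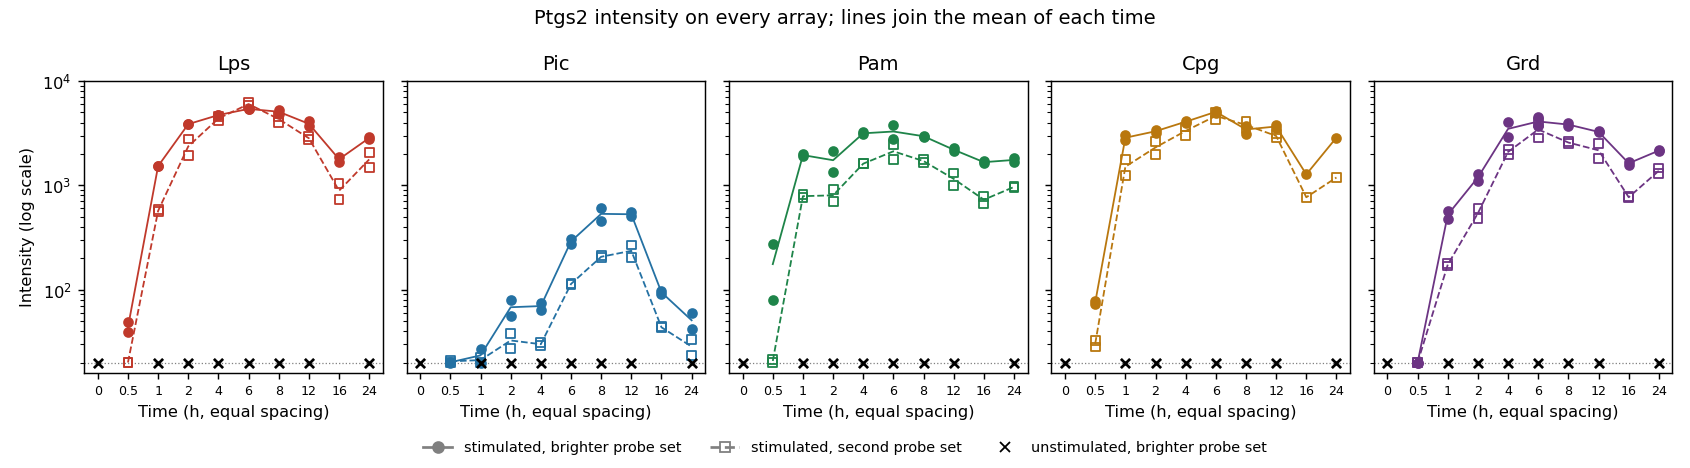
Ptgs2 intensity (log axis) against time in h (equally spaced) for each ligand; filled circles are arrays on the brighter probe set, open squares arrays on the second, lines join time means and crosses are unstimulated arrays. All 8 unstimulated arrays sit at 20, with 4 ligands the 6 h means lie between 3281 and 5406, and no Pic array exceeds 606.7.

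The early window (the times up to 2 h), the middle window (4 to 8 h) and the late window (from 12 h) are means of their 3 time means. Each was compared with the 8 unstimulated arrays in limma on log2(intensity + 1). A gene was called at a Benjamini-Hochberg adjusted p under 0.05 over all 10543 items and a log2 difference of at least 1. Ptgs2 rose in 14 of the 15 ligand windows, the exception being early Pic. In the early window it rose by 4.93 ± 0.12 (SE, n = 6) with Lps, 5.23 ± 0.12 with Pam, 5.41 ± 0.12 with Cpg and 3.49 ± 0.12 with Grd. These are rises of at least 31.7-, 39.2- and 44.6-fold with Lps, Pam and Cpg. With Grd the ratio was 11.6-fold, but its 2 arrays at 0.5 h were at 20, so it is not a lower bound. The difference with early Pic was 0.63 ± 0.12 (adjusted p = 4.3e-05 in limma), under the size required, with the 6 arrays between 20 and 79.2. Of all items, 1.57% were called higher in early Lps, 0.617% in Pic, 1.65% in Pam, 1.85% in Cpg and 0.948% in Grd. By size of rise Ptgs2 stood at rank 5, 4, 3 and 6 among the 10543 items in early Lps, Pam, Cpg and Grd.

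In the middle window Ptgs2 rose at least 252.9-fold with Lps, 206.6-fold with Cpg, 188.3-fold with Grd, 155.8-fold with Pam and 10.98-fold with Pic. On the log2 scale these rises were 7.91, 7.62, 7.49, 7.21 and 3.40, each ± 0.12 (SE, n = 6), with adjusted p of 3.1e-30 or less in limma. Only 1 item rose more than Ptgs2 with Lps, Cpg, Grd and Pam each, whereas with Pic it stood at rank 30. The share of items called higher was 7.05% for Lps, 5.4% for Cpg, 4.53% for Grd, 3.48% for Pam and 4.93% for Pic. In the late window the rises were at least 134.9-fold with Lps, 118.8-fold with Cpg (n = 4), 112.5-fold with Grd, 92.8-fold with Pam and 6.77-fold with Pic. These correspond to 7.01 ± 0.12, 6.82 ± 0.15, 6.74 ± 0.12, 6.47 ± 0.12 and 2.70 ± 0.12 on the log2 scale. Of all items 4.7% were called higher in late Lps, 3.86% in Cpg, 3.84% in Grd, 3.42% in Pam and 4.53% in Pic. The lowest stimulated Ptgs2 array in a late window read 41.9, with Pic, so no late array overlapped the unstimulated ones.

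The first time at which Ptgs2 was called was 0.5 h for Lps, Pam and Cpg, 1 h for Grd and 2 h for Pic. At 0.5 h the rises were 1.08 ± 0.18 with Lps, 2.81 ± 0.18 with Pam and 1.86 ± 0.18 with Cpg (SE, n = 2), while 0.579%, 0.759% and 0.579% of all items were called higher. On the second probe set the 0.5 h differences were not called, the highest being 0.57 with Cpg. The rise with Grd at 1 h was 4.64 ± 0.18, beside 1.02% of items called higher, and with Pic at 2 h 1.69 ± 0.18, beside 1.01%. The Pic value at 2 h was 0.66 on the second probe set and not called there.

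Differences between ligands were tested directly in the same fit, as 10 pairs in each of 3 windows. Ptgs2 was lower with Pic than with each other ligand in all 3 windows. In the early window Lps stood 4.30 above Pic, and Pic differed from Pam by -4.60, from Cpg by -4.78 and from Grd by -2.85, each ± 0.13 (SE) and each called. Of all items 0.863%, 0.939%, 1.22% and 0.19% were called in these 4 pairs. In the middle window Lps stood 4.52 above Pic, and Pic differed from Pam by -3.82, from Cpg by -4.22 and from Grd by -4.09, beside 3.72%, 8.24%, 3.41% and 4.03% of items called. At the late times Lps stood 4.30 above Pic, and Pic differed from Pam, Cpg and Grd by -3.76, -4.12 and -4.04, beside 3.44%, 8.47%, 5.08% and 6.35%. Adjusted p in limma for these 12 pairs was 1.2e-23 or less.

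Among the other 4 ligands, Ptgs2 was lowest with Grd at early times. In the early window Ptgs2 stood 1.44 ± 0.13 lower with Grd than with Lps, 1.74 ± 0.13 lower than with Pam and 1.93 ± 0.13 lower than with Cpg (SE), all called, with 0.266%, 0.285% and 0.446% of items called in these pairs. The gap to Pam was 0.93 on the second probe set, which ends that call. By the middle window the order was Lps, Cpg, Grd, Pam and Pic, and among the first 4 no pair was called. Lps lay 0.29 above Cpg (95% interval 0.02 to 0.56, adjusted p = 0.098 in limma), Cpg lay 0.13 above Grd (-0.13 to 0.40, adjusted p = 0.53) and Pam differed from Grd by -0.27 (-0.54 to -0.01, adjusted p = 0.11), none past the threshold. These 3 differences on the second probe set were 0.32, 0.56 and -0.55, with adjusted p of 0.017, 5.2e-05 and 4.0e-05 in limma but sizes under 1. Lps lay 0.70 ± 0.13 above Pam and 0.43 above Grd, and Pam differed from Cpg by -0.41, with adjusted p of 9.6e-06, 0.0065 and 0.0093 but sizes under 1. On the second probe set the gap between Lps and Pam was 1.43 and Pam differed from Cpg by -1.11, both called. Between these ligands 6.15% of items were called for Lps and Pam, 0.465% for Lps and Cpg, 1.99% for Lps and Grd, 3.03% for Pam and Cpg, 1.48% for Pam and Grd and 0.417% for Cpg and Grd.

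Ptges started from a level close to the lowest value as well. The unstimulated arrays read 20.7 ± 1.14 (SD, n = 8), between 20 and 22.6, and 5 of the 8 were at 20, so folds are given as lower bounds against the unstimulated mean on the log2 scale. Lps arrays read 22.9 and 20 at 0.5 h, 22.2 and 22.1 at 1 h, and 39.2 and 54.6 at 2 h. They read 119.6 and 115.5 at 4 h, 167 and 188.4 at 6 h, and 229.7 and 223.3 at 8 h. Ptges was thus within the unstimulated range at 1 h, when Ptgs2 already read 1528 or more on the same arrays. Lps arrays then read 332.3 and 325.9 at 12 h, 355.3 and 356.6 at 16 h, and 423.3 and 408.4 at 24 h. The 24 h arrays were the highest of the series on this probe set. The second probe set averaged 75.7 at 16 h and 71.15 at 24 h with Lps.

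Grd arrays read 20 and 20 for Ptges at 0.5 h, 21.1 and 20 at 1 h, and 34.3 and 44.7 at 2 h. They read 170.2 and 179.4 at 4 h, 222 and 276.7 at 6 h, and 226.8 and 252.8 at 8 h. At 4 h the Grd arrays were above every array of the other ligands at that time. Grd arrays then read 321.9 and 301.8 at 12 h, 298.6 and 302.2 at 16 h, and 354.5 and 370.1 at 24 h, the highest mean with this ligand, whereas the second probe set averaged 94.75 at 16 h and 93.05 at 24 h. Pam arrays read 20 and 20 at 0.5 h, 24.6 and 20 at 1 h, and 45.1 and 39.4 at 2 h. Thereafter they read 103.6 and 114.5 at 4 h, 177.7 and 150.8 at 6 h, and 195.7 and 184.4 at 8 h. The highest Pam mean came at 16 h, on both probe sets. The Pam arrays were 172.5 and 190.1 at 12 h, 295.8 and 292.4 at 16 h, and 201.5 and 173.7 at 24 h.

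Cpg arrays read 22.2 and 20.2 for Ptges at 0.5 h, 30.2 and 24.8 at 1 h, and 47.5 and 43.3 at 2 h. They read 123.1 and 98.6 at 4 h, 136.3 and 121.6 at 6 h, and 181.9 and 160.4 at 8 h. The highest Cpg mean came at 12 h, where the arrays read 258.7 and 262.6, followed by 143.3 at 16 h and 197.5 at 24 h on 1 array each. With Pic, Ptges was again lowest in each window by its mean, though not at every time. At 12 h the Pic arrays overlapped those of Pam, and at 16 h both were above the single Cpg array. Pic arrays read 20 and 28.9 at 0.5 h, 20 and 20 at 1 h, and 25.5 and 28.8 at 2 h. They read 33.1 and 39.6 at 4 h, 39.1 and 42.1 at 6 h, and 96.4 and 94.8 at 8 h. Ptges with Pic peaked at 12 h and by 24 h was at 46.4% of that peak. The Pic arrays were 182.5 and 167 at 12 h, 159.3 and 144.5 at 16 h, and 87.4 and 74.9 at 24 h.

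**Figure D2:**
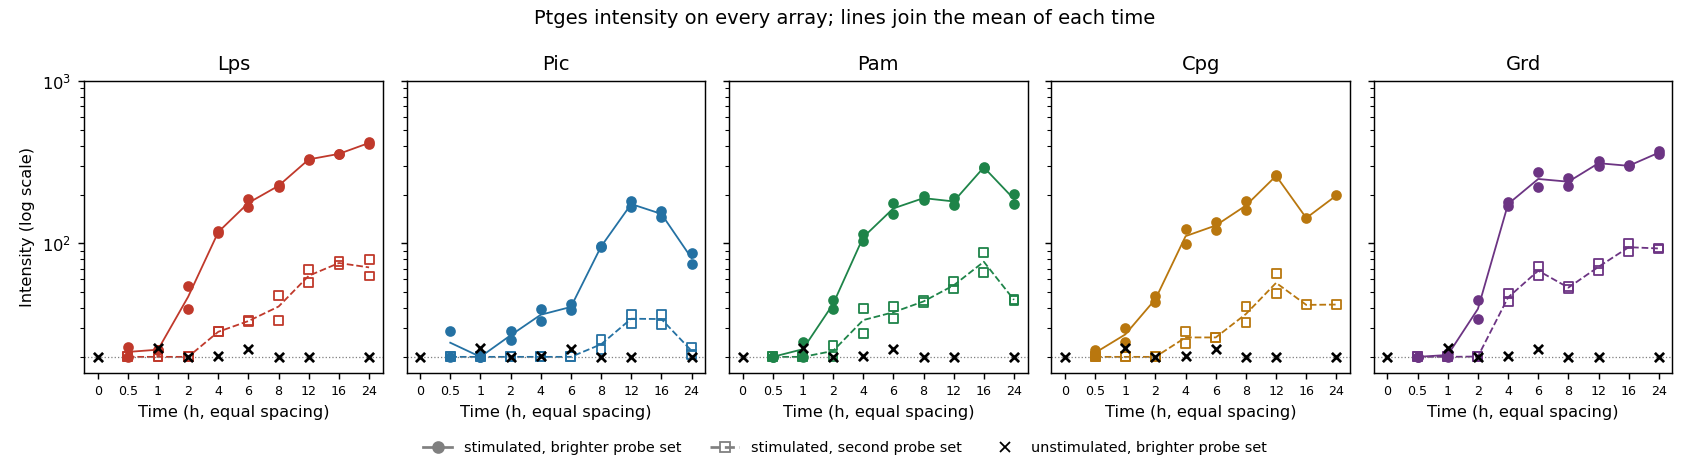
Ptges intensity (log axis) against time in h (equally spaced) for each ligand; filled circles are arrays on the brighter probe set, open squares arrays on the second, lines join time means and crosses are unstimulated arrays. The brighter probe set reads at most 54.6 at 2 h with any ligand and reaches 423.3 with Lps at 24 h, and the second, dimmer probe set stays at or below 99.9.

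Ptges did not reach the required size in any early window and rose in all 10 middle and late windows. The early differences were 0.43 with Lps, 0.18 with Pic, 0.35 with Pam, 0.51 with Cpg and 0.28 with Grd, each ± 0.07 (SE, n = 6), with adjusted p from 1.6e-08 to 0.026 in limma. In the middle window it rose by 2.96 ± 0.07 with Lps, 2.80 ± 0.07 with Pam, 2.64 ± 0.07 with Cpg, 3.34 ± 0.07 with Grd and, least, 1.29 ± 0.07 with Pic. These are rises of at least 8.13-, 7.28-, 6.51-, 10.6- and 2.52-fold. In the late window it rose by 4.08 ± 0.07 with Lps, 3.91 ± 0.07 with Grd, 3.32 ± 0.07 with Pam, 3.18 ± 0.08 with Cpg and 2.59 ± 0.07 with Pic, or at least 17.7-, 15.7-, 10.4-, 9.43- and 6.25-fold. No array of the 10 middle and late windows overlapped the unstimulated range, the lowest being 33.1. By size of rise Ptges moved up from rank 87 in middle Lps to rank 16 in late Lps, and from rank 337 to rank 55 with Pic. The shares of all items called in these windows are those given for Ptgs2.

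The second Ptges probe set was dim, at 20 on 40 of the 96 arrays and on all 8 unstimulated ones, and it followed the brighter one (r = 0.91 over 46 group means). On it the middle rise was called with Grd alone, at 1.42, while Lps stood at 0.72, Pam at 0.89, Cpg at 0.53 and Pic at 0.08. Late rises were called with Lps (1.75), Grd (2.05), Pam (1.48) and Cpg (1.17) and not with Pic (0.54). All its middle arrays with Lps, Pam, Cpg and Grd, 6 of 6 each, were above the unstimulated arrays, against 2 of 6 with Pic. The middle difference of Ptges with Pic also lost its call on the brighter probe set with a pseudocount of 16, at 0.91, and without the 8 h arrays, at 0.86.

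**Figure D3:**
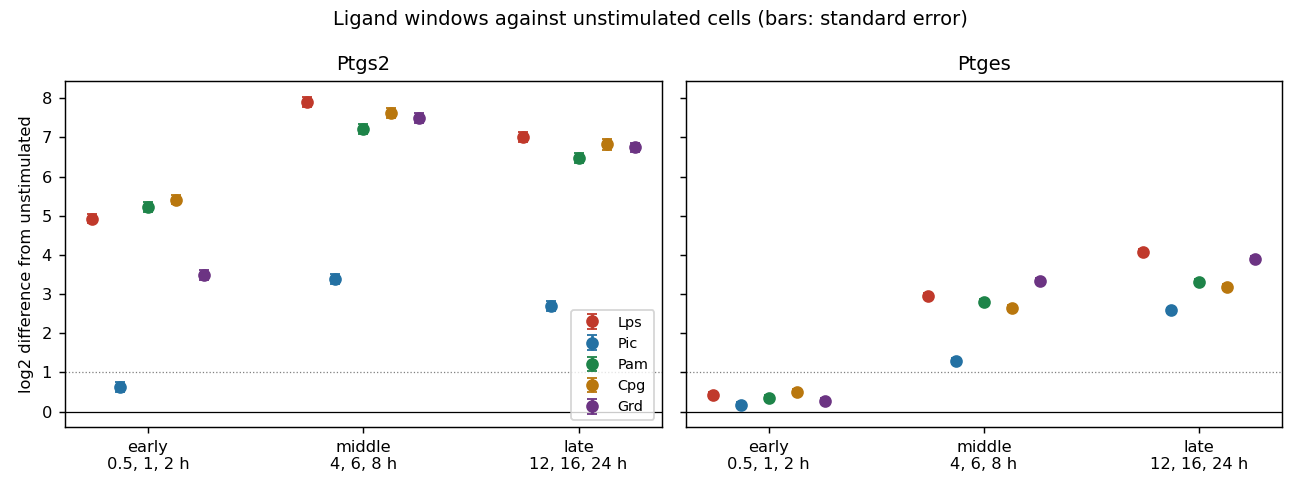
The log2 difference from unstimulated cells for Ptgs2 (left) and Ptges (right) in the early, middle and late window; points are ligands, bars are standard errors and the dotted line is the size of 1 required for a call. Ptgs2 is highest in the middle window with every ligand (7.91 with Lps), Ptges in the late window (4.08 with Lps), and Pic is the lowest point in each window.

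Ptges was first called at 2 h with Lps and Cpg, at 4 h with Pam and Grd and at 8 h with Pic, later than Ptgs2 on the brighter probe sets. The order among ligands depends on the required size of 1. At 2 h the differences were 1.13 with Lps, 1.10 with Cpg, 0.996 with Pam and 0.89 with Grd. All Pam and Grd arrays were above the unstimulated ones by then. With Pic the differences were 0.78 at 4 h and 0.94 at 6 h. On the second Ptges probe set the first call came at 12 h with Lps and Cpg, at 8 h with Pam and at 4 h with Grd, and with Pic at no time. At the first times on the brighter probe set, 4.14% of all items were called higher with Lps and 3.68% with Cpg. With Pam, Grd and Pic the shares were 3.76%, 3.81% and 6.34%. The rise with Lps at 2 h was 1.13 ± 0.10 (SE, n = 2; adjusted p = 4.1e-14 in limma). In the ligand pairs, Lps stood 1.67 above Pic in the middle window, and Pic differed from Pam by -1.51, from Cpg by -1.35 and from Grd by -2.05, each ± 0.07 and called. Lps stood 0.64 above Pic on the second probe set, and Pic differed there from Pam by -0.81 and from Cpg by -0.45, none of them called. On the brighter probe set Grd was the highest in the middle window. Lps differed from it by -0.38, Pam by -0.53 and Cpg by -0.70, with adjusted p of 2.2e-05 or less in limma but sizes under 1. On the second probe set these differences were -0.70, -0.53 and -0.89, also under 1 in size. Late Ptges followed the order Lps, Grd, Pam, Cpg and Pic on the brighter probe set. Lps and Grd differed by 0.17 (95% interval 0.03 to 0.32, adjusted p = 0.061) and Pam and Cpg by 0.14 (-0.03 to 0.31, adjusted p = 0.25), neither past the threshold. By the second probe set Grd stood above Lps, with a Lps minus Grd difference of -0.30 (adjusted p = 0.00066 in limma), and Pam lay 0.30 above Cpg (adjusted p = 0.0041), both under the required size. On the brighter probe set late Lps stood 1.49 above Pic and late Pic differed from Grd by -1.32, both called. Late Pic differed there from Pam by -0.73 and from Cpg by -0.59, neither called. Without the 12 h arrays Pic differed from Pam by -1.07, called, and without the 24 h arrays from Grd by -0.91, not called.

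The timing of the 2 genes was then compared within each ligand. From the early to the middle window both rose with every ligand on the brighter probe sets: Ptgs2 by 2.98 with Lps, 2.76 with Pic, 1.98 with Pam, 2.21 with Cpg and 4.00 with Grd, each ± 0.13. Ptges rose by 2.54, 1.11, 2.45, 2.14 and 3.06, each ± 0.07. On the second Ptges probe set the change was called with Grd alone and stood at 0.72 with Lps, 0.081 with Pic, 0.85 with Pam and 0.53 with Cpg. With Pic it was also not called with a pseudocount of 16 (0.80) or without the 8 h arrays (0.68). Over all items 5.54%, 4.64%, 1.88%, 3.61% and 3.21% were called higher between these windows. The 0.5 h arrays carry much of the Ptgs2 change with Pam and Cpg, which stood at 0.78 and 0.43 without them, neither called. From the middle to the late window Ptgs2 stood lower and Ptges higher with each ligand. For Ptgs2 the differences were -0.91 with Lps, -0.69 with Pic, -0.75 with Pam, -0.80 with Cpg and -0.74 with Grd, with adjusted p of 1.9e-05 or less in limma but none reaching the required size. On the second probe set they were -1.57 with Lps, -1.47 with Cpg and -1.001 with Grd, which were called. Ptges rose by 1.12 ± 0.07 with Lps and 1.29 ± 0.07 with Pic, and stood 0.52 higher with Pam, 0.53 with Cpg and 0.57 with Grd, which were not called. With each array centred on its median the Lps rise was 0.97 and not called. The share of all items called either way between these windows was 6.82% with Lps, 2.27% with Pic, 2.3% with Pam, 4.12% with Cpg and 2.63% with Grd.

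The log2 ratio of Ptges to Ptgs2 on the same array gives the same comparison in a single value. Its level has no meaning across probe sets, but its change shows that the 2 transcripts did not move equally. It was higher in the late than in the middle window by 2.02 with Lps, 1.98 with Pic, 1.26 with Pam, 1.28 with Cpg and 1.31 with Grd. The late and middle arrays did not overlap for Lps, Pam, Cpg and Grd and did overlap for Pic. Two-sided exact permutation p was 0.0022 for Lps, Pam and Grd, the smallest that 6 against 6 arrays can give, and 0.015 for Pic and 0.0095 for Cpg (Benjamini-Hochberg adjusted over the 5 ligands 0.0036, 0.015 and 0.012). The permutation treated single arrays as independent, although arrays of the same time belong together and may be technical repeats. These p-values may therefore be too small, and they describe the deposited arrays only. This ratio was examined after its direction had been seen in the data.

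**Figure D4:**
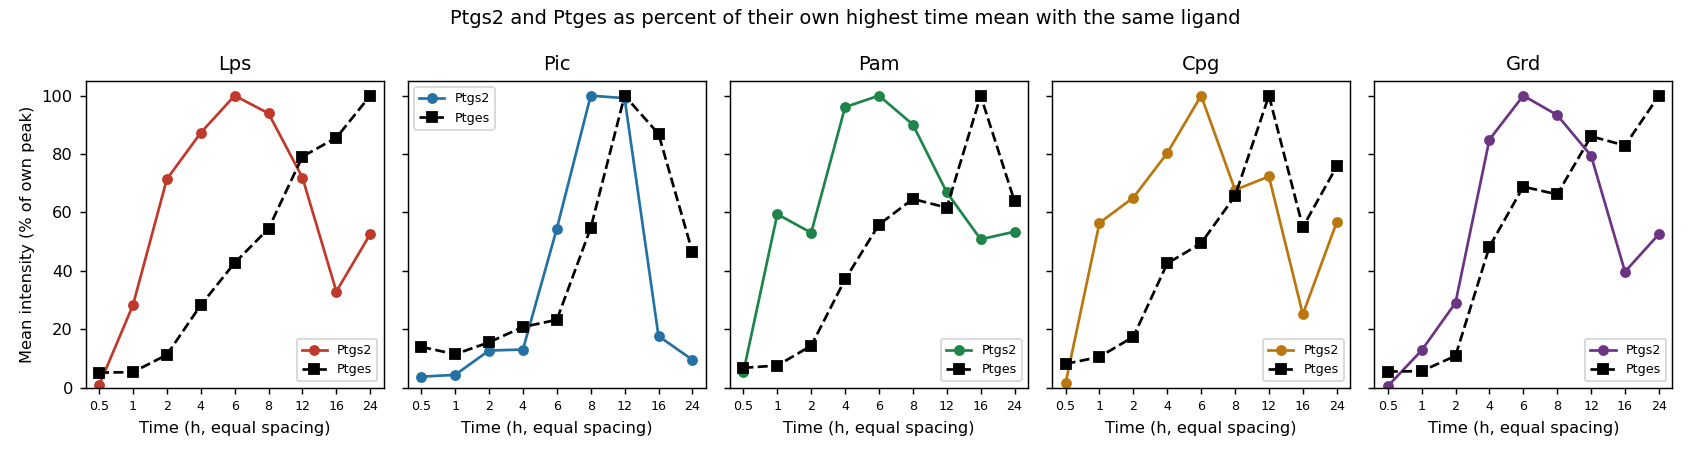
Mean intensity of Ptgs2 (circles, solid) and Ptges (squares, dashed) on their brighter probe sets, as percent of each gene's own highest time mean with that ligand, against time in h (equally spaced). Ptgs2 peaks at 6 h (8 h with Pic), while Ptges is at 42.7% of its Lps peak at 6 h and peaks at 24 h with Lps and Grd, 16 h with Pam and 12 h with Cpg and Pic.

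Ptgs2 did not decline evenly. At 16 h its log2 difference from the mean of 12 and 24 h was -0.90 with Lps, -0.79 with Pic, -0.23 with Pam, -1.35 with Cpg and -0.70 with Grd. The Cpg value was called but rests on 1 array at 16 h and 1 at 24 h, and the others were not called (adjusted p = 0.0018, 0.016, 0.72 and 0.013 in limma for Lps, Pic, Pam and Grd). On the second probe set they were -1.35, -0.89, -0.53, -1.29 and -1.16, called with Lps, Cpg and Grd. Of all items 0.123%, 0.019%, 0.0569%, 0.36% and 0.408% were called lower at 16 h with Lps, Pic, Pam, Cpg and Grd. Ptges gave no such common pattern, with differences of -0.06, 0.35, 0.67, -0.66 and -0.16, none called. The arrays of 16 h lay in a plate column of their own for 4 ligands, so place and time cannot be told apart, and this comparison was chosen after the values were seen.

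Markers of other cell types also moved over the same times, and their part in the results was not tested. Of 7 neutrophil markers, S100a8, S100a9 and Ngp were the brightest on unstimulated arrays, with means of 2243, 2987 and 1032. Mpo and Elane averaged 25.8 and 31.3 there, near the lowest value. The summed intensity of the 7 was 5172.3 to 8190.4 on unstimulated arrays. At the late times it was 1207 to 3028.2 with Lps, 2284.5 to 3226.9 with Pam, 1597.7 to 3780.7 with Cpg, 2177.1 to 4392.3 with Grd and 3917.3 to 6186.5 with Pic. The platelet sum, which Pf4 and Ppbp carry (Itga2b read at most 25 and Gp9 at most 22.2), was 2811.1 to 4035.1 on unstimulated arrays. In the late window it was 6424.2 to 7871.5 with Pam, 4981.8 to 6416.7 with Grd and 4077.9 to 5434.1 with Cpg, all above that range, 3157.7 to 3488.2 with Lps and 1598.5 to 2535.5 with Pic. Of 2 fibroblast markers Lum was at 20 on all arrays, while Dcn ranged up to 264. The sum of the 2 was 40.5 to 49 on unstimulated arrays and 74.3 to 168.7 in late Lps, 62.5 to 189 in Pam, 76 to 193.5 in Cpg, 66.7 to 284 in Grd and 45.5 to 57.9 in Pic. Of 7 mast cell and basophil markers 3, Cpa3, Tpsb2 and Ms4a2, were at 20 on all arrays. Their sum was 146 to 152.5 on unstimulated arrays and reached 509.9 with Lps, where Hdc, a histamine-synthesis gene, read up to 378.1.

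The rest of the pathway was described from a list of 44 genes of arachidonate supply, terminal synthases, breakdown and transport, the leukotriene branch and receptors. Of these 30 had a probe set, 25 were tested and 11 were called in at least 1 ligand window, beside 23% of all items. More of them were called lower than higher. In the middle window 0 of 25 were higher with any ligand, and 8 were lower with Lps, 3 with Pic, 5 with Pam, 7 with Cpg and 5 with Grd. Over all items 7.05%, 4.93%, 3.48%, 5.4% and 4.53% were higher and 8.22%, 2.79%, 4%, 5.53% and 3.92% lower there. Shares this small would give few higher calls among 25 genes, so 0 higher is near the background. In the late window 2, 0, 2, 1 and 2 were higher and 6, 4, 4, 4 and 4 lower, beside 4.7%, 4.53%, 3.42%, 3.86% and 3.84% of all items higher and 4.42%, 4%, 2.97%, 3.23% and 2.88% lower. In the early window 1 gene was lower with each ligand but Pic, beside 0.55%, 0.74%, 0.294% and 0.171% of all items with Lps, Pam, Cpg and Grd, and 0.247% with Pic. The median log2 difference of the list lay between -0.24 (middle Pic) and 0.04 (late Pam), and that of all items between -0.11 (middle Lps) and -0.01. With arrays centred on their median, 958 items were higher and 536 lower in middle Lps in place of 743 and 867. In middle Pic, centring gave 643 higher and 193 lower in place of 520 and 294, and in middle Cpg 706 and 412 in place of 569 and 583.

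Among genes that supply arachidonic acid, Pla2g4a, the cytosolic phospholipase that releases it from membranes, rose in late Lps from 286.7 ± 26.4 (SD, n = 8) to a mean of 616.5, by 1.10 ± 0.06 (SE). Pla2g15, a lysosomal phospholipase, fell in all 10 middle and late windows, most in middle Lps (-2.33), where its 6 arrays lay between 29.4 and 46.6 against 134.6 to 312.2 unstimulated. Its second probe set was also lower in the early window, with differences of -1.55 with Lps, -1.78 with Pic, -1.68 with Pam and -1.15 with Cpg, past the threshold. Daglb, a diacylglycerol lipase, also fell in those 10 windows. It was at 20 on every array of 8 of them, against 71.8 ± 10.4 (SD, n = 8) unstimulated, so its differences of -1.78 are set by the lowest value. Mgll, which hydrolyses monoacylglycerols, fell in the middle and late windows of Lps, Pam, Cpg and Grd, to -2.77 in late Pam, and was not called in any Pic window. A second Mgll probe set gave -2.36 in late Pam and the third -2.04, but on the third the middle differences of -0.93 with Lps and -0.66 with Cpg were not called.

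The list also has a heading of other terminal synthases, and a place under it is not evidence that a gene makes a prostaglandin. There Tbxas1, thromboxane synthase, fell in 9 windows. Its mean went from 1022 ± 88.2 (SD, n = 8) unstimulated to 352.6 in middle Lps (-1.57 ± 0.06). Akr1b8, an aldo-keto reductase, rose in the late windows of Lps (1.85), Pam (2.92), Cpg (2.11) and Grd (2.50), with Pam arrays between 283.4 and 766.8 against 56.2 to 87 unstimulated. Cbr1, carbonyl reductase, fell in middle Lps by 1.26. Ptges2 and Ptges3, the other genes named as prostaglandin E synthases, were called in no window. Ptgr1, a reductase that inactivates prostaglandins and leukotrienes, rose in late Pam (1.42) and late Grd (1.28). In the leukotriene branch, Alox5ap, the 5-lipoxygenase activating protein, fell in 3 windows (-1.15 in middle Lps), and Lta4h, leukotriene A4 hydrolase, in 4 (-1.44 in late Pic).

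Among receptors, Ptger2, a prostaglandin E receptor, fell in all 5 middle windows and in each early window but Pic, from 152 ± 68.5 (SD, n = 8) unstimulated to a mean of 34.3 in middle Lps (-2.14 ± 0.14). In late windows Ptger2 was not called, with differences of 0.24 for Lps, -0.46 for Pic, 0.56 for Pam, 0.079 for Cpg and 0.060 for Grd. The unstimulated Ptger2 arrays ranged from 88.9 to 279.3, and with a linear trend fitted to them no gene of the list was called lower in early Lps, Cpg or Grd. The count in early Lps was also 0 with a pseudocount of 16 and with centred arrays. Ptger4, another prostaglandin E receptor, was called in no window.

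**Figure D5:**
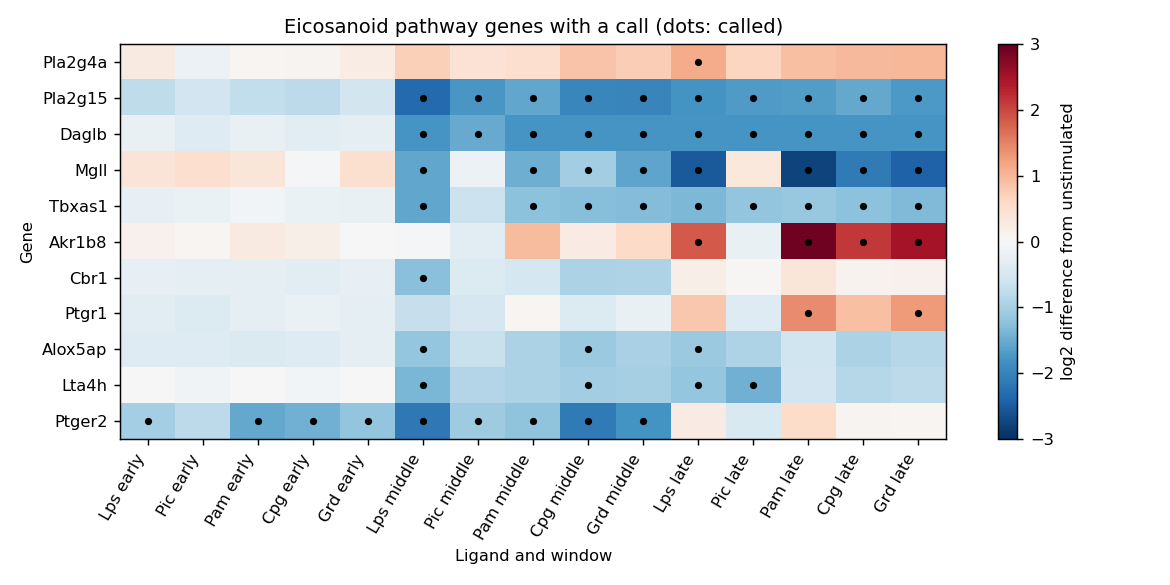
Log2 difference from unstimulated cells (colour, red higher and blue lower) for the 11 pathway genes called in at least 1 window, in rows ordered by role, against ligand and window in columns; dots mark calls. Pla2g15, Daglb and Tbxas1 are lower in most middle and late windows, Ptger2 in early and middle windows, and Akr1b8 is higher in late windows of 4 ligands.

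The named genes most like each member were ranked by Pearson's r over the 46 group means, among 1165 genes whose group means spanned at least 2 log2 units. For Ptgs2 they were Il6 (r = 0.98), Il12b (0.92), Schip1 (0.91), Gpr85 (0.91) and Il1a (0.89). Il6, Il12b and Il1a encode inflammatory cytokines. For Ptges they were Clmp (0.97), Slc31a2 (0.95), Tlr1 (0.94), Adhfe1 (0.94) and Procr (0.94), of which Tlr1 encodes a partner of TLR2 and Procr a receptor for protein C. The lists shared no gene, but lists of 5 among 1165 genes would seldom share any. The value of r between Ptgs2 and Ptges was 0.65. The points share arrays, plate and ligands, so these values describe the order only. By Spearman's rank correlation 3 of the 5 genes were kept for each member.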

How the data were processed

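Total RNA from mouse bone marrow dendritic cells was labelled with biotin and hybridised to Affymetrix arrays, per the labels' protocols. The authors deposited intensity values on a linear scale, and RMA is named in the submitters' processing notes, without a version. The step that set the lowest value of 20 is not given there or in the labels. Names of probe sets come from the platform annotation, and 4409 at 20 on all 96 arrays were left out. A gene was tested on its brightest probe set, by the mean over all arrays. In limma 3.58.1 (R 4.3.3), 46 group means were fitted to log2(value + 1), with 50 residual degrees of freedom, two-sided tests and Benjamini-Hochberg adjustment. Fold changes of dim genes are understated on this scale. Lower bounds of a fold were taken on log2 of the deposited intensity against the unstimulated mean. The fit was tested on simulated data. Ligand windows were the mean of their time means. Named were both measured members, each pathway gene called in at least 1 window, and the 5 genes most like each member. The members, lists and tests were chosen with earlier results of these data known. The number of arrays limits the precision. Alternatives covered the pseudocount, normalization, filter, probe sets, blocks, weights, unstimulated arrays, times and single arrays. Ptgs1 is not analysed here.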

Additional observations from a re-analysis of the deposited data

Results flagged for a closer look

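Changes between windows of the same ligand that passed the direct test of the difference were the results that stood out. Between the early and middle window, the difference from unstimulated cells grew for Ptgs2 by 2.98 with Lps, 2.76 with Pic, 1.98 with Pam, 2.21 with Cpg and 4.00 with Grd, in log2 units. For Ptges it grew by 2.54, 1.11, 2.45, 2.14 and 3.06 with the same ligands. Between the middle and late window the difference grew further for Ptges with Lps (1.12) and Pic (1.29). A check for single arrays far from the rest was possible only in the 8 unstimulated arrays, where it marked none for Ptges and Ptgs2 was at 20 on all 8.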

How the results depend on the processing

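Values are log2 differences, and a difference that was not called in either setting was counted as unchanged. No left-out array changed a window, pair or window-change call of either gene. With a pseudocount of 16, Ptges with Pic stood at 0.91 in the middle window and 0.80 for middle minus early, neither called. With arrays centred on their median, late minus middle with Lps was -1.06 for Ptgs2, called, and 0.97 for Ptges, not called. On the second Ptgs2 probe set, Pam minus Grd early was 0.93 and no longer called. Newly called there were Lps minus Pam (1.43) and Pam minus Cpg (-1.11) in the middle window, and late minus middle with Lps (-1.57), Cpg (-1.47) and Grd (-1.001). On the second Ptges probe set, calls were lost in the middle window with Lps (0.72), Pic (0.081), Pam (0.89) and Cpg (0.53) and in the late window with Pic (0.54). They were also lost for Lps minus Pic (0.64), Pic minus Pam (-0.81) and Pic minus Cpg (-0.45) in the middle window. The same held for middle minus early with Lps (0.72), Pic (0.081), Pam (0.85) and Cpg (0.53), and for late minus middle with Pic (0.45). This probe set was at the lowest value on 40 arrays. With the mean of a gene's probe sets, Ptgs2 gained Lps minus Pam in the middle window (1.07) and late minus middle with Lps (-1.24) and Cpg (-1.13). Ptges lost the middle window with Pic (0.69), Pic minus Cpg there (-0.90), and middle minus early (0.60) and late minus middle (0.87) with Pic. Without the 0.5 h arrays, Ptgs2 middle minus early was 0.78 with Pam and 0.43 with Cpg, not called. Without 1 h, Ptges middle minus early with Pic was 0.9998, not called, and without 2 h Ptgs2 gained Lps minus Pam early (-1.04). Without 4 h, Ptgs2 gained late minus middle with Pic (-1.52) and Ptges lost it with Lps (0.86). Without 8 h, Ptges with Pic lost the middle window (0.86) and middle minus early (0.68). Without 12 h, Ptgs2 gained late minus middle with Lps (-1.17), Pic (-1.67), Cpg (-1.11) and Grd (-1.01), and Ptges gained Lps minus Cpg (1.19) and Pic minus Pam (-1.07) in the late window. Without 16 h, Ptges gained Lps minus Pam late (1.00), and without 24 h it lost Pic minus Grd late (-0.91). The cause of these changes was not tested.

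Replicate numbers showed no pairing common to all groups. Over 903 pairs of groups the correlation of replicate differences ran from -0.33 to 0.35, with a median of 0.0076, and 17.4% were over 0.1. These pairs pool all ligands, so pairing within a ligand was not tested. With the replicate block, Ptgs2 in middle Lps stood at 7.93 in place of 7.91, and no window, pair or window-change call of either gene changed. Plate row as a random block had a correlation of -0.0042. Counts over all items moved by more than 1.5 times in 122 of the cases and stayed within that in 1488, and pathway counts in 33 and 447. Items lower in early Pic, for example, were 26, or 3 with a linear trend fitted to unstimulated cells. The lowest value limits what can be measured below 20.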
